A study of Mus musculus with 32 samples.

Results

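Ribosomal protein genes encode the proteins of the cytosolic ribosome, the particle that translates nuclear-encoded messenger RNA. Members were taken by symbol, as large subunit (Rpl), small subunit (Rps), stalk (Rplp) or Rpsa names without a pseudogene suffix, and had to reach 10 counts in at least 8 libraries. Of 89 rows with such a symbol, 85 passed, out of 36595 rows in the table, and all 85 were among the 16428 genes tested. Rpl3l, Rpl10l, Rpl32l and Rpl39l did not pass. By symbol, the 85 comprised 43 of the large subunit, 33 of the small subunit, 3 of the stalk and 6 paralogs or relatives (Rps27l, Rpl22l1, Rpl7l1, Rps4l, Rps12l1 and Rpl6l). The gene annotation used here gives 5 of them no coding sequence: Rps3a2, Rps3a3, Rpl6l and Rps12l1 are annotated as processed pseudogenes and Rps4l as a transcribed processed pseudogene.

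The libraries came from cultured mouse islets, 8 in each of 4 groups. All mice were 10-week-old males and females on the C57BL/6NHsd background. In hIAPP mice the human gene for islet amyloid polypeptide had replaced mouse Iapp by homologous recombination, so that the mouse locus drives it, and the mIAPP mice were wild-type littermates. Islets of all groups were isolated with collagenase, recovered overnight at 11.1 mM glucose, and then kept for 48 h at 11.1 or 16.7 mM glucose. The labels describe 8 separate sets of experiments, each with 1 library of each group, and do not state how many animals a set pooled or whether the hIAPP allele was carried on both chromosomes. P-values of the reported fit therefore measure how far differences between the groups varied from set to set. A level shared by all libraries of a set is taken out.

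A ribosome carries 1 copy of nearly every one of these proteins, and their genes are among the most highly transcribed in any cell. Their mRNAs begin with a run of pyrimidines at the transcription start (a terminal oligopyrimidine tract), through which mTORC1 and LARP1 control their translation and stability. In beta cells, which make large amounts of proinsulin when glucose is high, the number of ribosomes is one limit on how much protein can be made. The stalk proteins recruit translation factors, and free Rpl5 and Rpl11 bind Mdm2 and so connect ribosome assembly to p53. A few ribosomal proteins have another gene for a similar protein, such as Rps27l beside Rps27 and Rpl22l1 beside Rpl22.

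The start regions of 8 members named below are shown with their runs of C and T. Each line gives 20 bases before the RefSeq start and 20 bases from it (GRCm38.p6, strand of the gene), with unbroken runs of at least 8 C or T in capitals. Rpl35a and Rpl7l1 hold no such run in this window, and the run of Rps27l lies before the RefSeq start. The first 4 are members that fell with glucose, and the last 4 are members that rose in at least 1 genotype.
Rpl13a, chr7:45128726-45128765, minus strand: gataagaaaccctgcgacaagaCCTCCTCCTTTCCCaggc
Rps27, chr3:90213629-90213668, minus strand: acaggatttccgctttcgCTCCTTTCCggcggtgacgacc
Rps24, chr14:24490658-24490697, plus strand: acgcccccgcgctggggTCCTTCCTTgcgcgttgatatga
Rpl35a, chr16:33056433-33056472, plus strand: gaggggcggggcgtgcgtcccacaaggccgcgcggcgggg
Rpl7a, chr2:26910787-26910826, plus strand: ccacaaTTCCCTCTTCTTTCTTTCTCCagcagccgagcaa
Rps27l, chr9:66946066-66946105, plus strand: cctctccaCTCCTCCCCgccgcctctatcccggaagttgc
Rpl22l1, chr3:28805488-28805527, plus strand: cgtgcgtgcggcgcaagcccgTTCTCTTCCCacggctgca
Rpl7l1, chr17:46782637-46782676, minus strand: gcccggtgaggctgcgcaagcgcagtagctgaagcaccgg

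Runs of this kind stood in members of both directions. RefSeq windows were found for 60 of the 85 members, and 29 of the 60 (48.3%) held such a run overlapping the 40 bases shown, against 20.7% of all 27025 windows. In the whole window of 300 bases, CCGGAAG on either strand, a sequence that ETS factors bind, was in 24 of the 60 (40%) and in 9.2% of all windows. AAGATGG on either strand, a YY1 sequence, was in 9 of the 60 (15%) and in 6.5% of all windows. CTTTCC on the sense strand, which can lie inside a pyrimidine run, was in 21 of the 60 (35%) against 14.1%, and TATAAA on the sense strand was in 6 of the 60 (10%) against 8.9%. A match is a description of the sequence and not a measured site.

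Libraries held 16110000 to 43700000 counts. Median totals were 29110000 (hIAPP) and 31690000 (mIAPP) at 16.7 mM, and 25895000 and 25415000 at 11.1 mM. The Iapp row stood at 5644 to 7907 CPM (a row's count as parts of the library's total in the usual CPM unit, the total scaled by TMM factors) in the hIAPP libraries at 11.1 mM and at 8640 to 15610 CPM in the mIAPP ones. At 16.7 mM it stood at 9757 to 11580 and at 16860 to 30380 CPM, and at each glucose level the genotypes did not overlap. The sources used here do not say if human IAPP was part of the index, so this row checks the genotype only by that gap. The 9 beta cell markers had a summed level of at least 145900 CPM in every library, while the 7 acinar markers tested summed to at most 216.2 CPM. The mIAPP library of set 7 at 16.7 mM stood apart, with 37% of its counts from mitochondrially encoded genes against 2.84 to 13.4% in the other libraries of its group. The 11.1 mM libraries were split on this measure, with hIAPP sets 3 and 4 and mIAPP sets 3, 4 and 5 under 10% and the other 11 at 13.2 to 34.7%.

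Per length of transcript, Rpl41, the shortest ribosomal protein, was the most abundant member, with a mean over the 32 libraries of 3180 CPM per kilobase. Rpl13a followed with 1343 and Rplp1 with 1293 CPM per kilobase. At the low end, Rps3a2, Rps3a3 and Rpl6l stood at 0.35, 0.415 and 1.23 CPM per kilobase. Rps3a2 was listed at 0 in 13 libraries. These 3 rows give values near the limit of detection and are not described further. Rps12l1 was at 0 in most libraries and well above that limit in a few. Rps12l1 was at 0 in all 8 hIAPP libraries at 16.7 mM and in 5, 6 and 4 libraries of hIAPP 11.1 mM, mIAPP 16.7 mM and mIAPP 11.1 mM islets. It reached 10 counts in sets 1, 7 and 8 of hIAPP and sets 1, 2, 7 and 8 of mIAPP islets at 11.1 mM, and at 16.7 mM in the mIAPP library of set 7 alone, at 149.4 CPM. All 8 of these libraries had at least 10% of their counts from mitochondrially encoded genes.

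Many members share their sequence with processed pseudogenes, and a read that fits both can be assigned to either. For 76 members at least 1 other row of the table had a transcript at least 95% identical over at least 100 bases and at least 50% of the member's coding length. These came to 603 rows, 590 of them annotated as pseudogenes, and they held 11.3% of the counts of members and copies together. In 16 members the copies held over 20%. Rpl5 was the extreme, with 91.2% of its counts and those of its copies on the copies, mainly on the row of Gm15500 (chr7:114705217-114706235), a processed pseudogene identical to the Rpl5 coding sequence over all 891 bases. The first 60 bases of the Rpl5 coding sequence and the same stretch of Gm15500 are shown because no base differs between them (Rpl5 lies at chr5:107900502-107909005, plus strand, GENCODE M21 on GRCm38).
Rpl5: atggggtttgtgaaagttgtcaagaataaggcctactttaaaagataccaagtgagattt
Gm15500: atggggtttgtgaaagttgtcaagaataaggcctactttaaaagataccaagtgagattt
Rpl12 was next, with 83.6% on copies and Gm10275 identical over all 495 coding bases. Copies held 47.3% for Rpl11, 39% for Rps12 and 25.8% for Rps6. The levels of these members are uncertain, and their fold changes are also given with the copies added.

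In hIAPP islets, glucose at 16.7 mM went with lower levels of most ribosomal protein genes, and the same comparison in mIAPP islets gave a like picture. By edgeR's quasi-likelihood test with Benjamini-Hochberg adjustment over all tested genes, 75 of 85 members fell in hIAPP islets, where 33.3% of all genes fell. Another 3 members rose, where 32.2% of all genes rose. In mIAPP islets 64 members fell, against 22.7% of all genes, and 3 rose, against 24.9%. The median log2 fold change of the members was -0.68 in hIAPP and -0.48 in mIAPP islets, beside -0.02 and -0.03 for all genes tested. Within sets the member median ran from -1.02 (set 1) to 0.02 (set 3) in hIAPP islets. In mIAPP islets it ran from -1.43 (set 8) to -0.08 (set 6). Groups did not overlap for 2 members that were lower in hIAPP islets (8.38% of all genes) and for 1 that was higher (14.3%), and in mIAPP islets for 0 members (1.41% of all genes lower and 2.64% higher). Among the 18 libraries with under 10% mitochondrially encoded counts, 3 members fell in hIAPP and 12 in mIAPP islets, of 84 tested. In those libraries 10.7 and 14.4% of all genes fell, so that the members' shares were near or below that of all genes. In hIAPP islets 36 members were lower in all 8 sets, and in mIAPP islets 49. The same count was not made over all genes, so these 2 counts do not set the members apart. Leaving out the 16.7 mM mIAPP library of set 7, 75 members fell in hIAPP and 68 in mIAPP islets. In that fit 33.6% and 24.7% of all genes fell. In bulk islets, a change in which cells are present and a change in RNA per cell cannot be told apart.

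**Figure D1:**
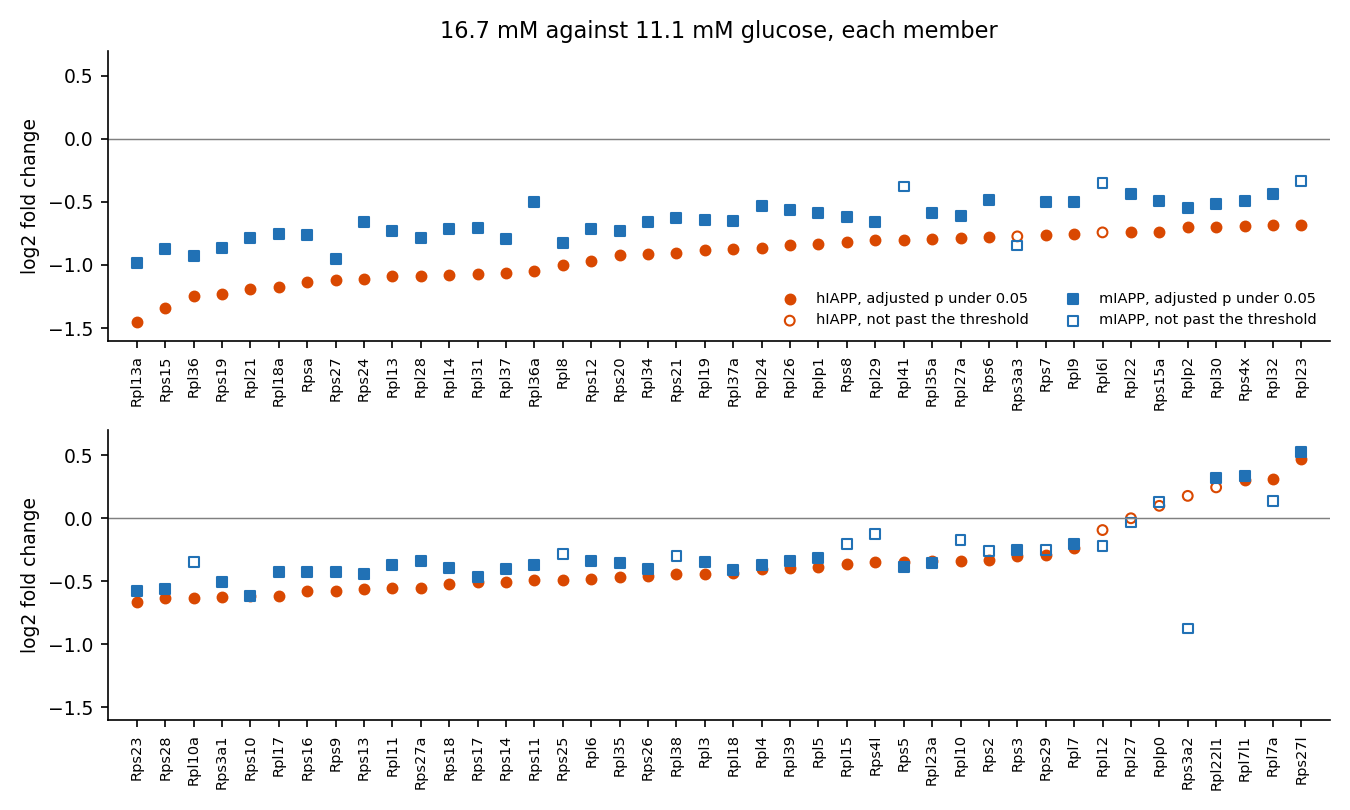
Log2 fold change between 16.7 and 11.1 mM glucose (y axis) of 84 members (x axis, ordered by the hIAPP value), with circles for hIAPP and squares for mIAPP islets; filled symbols passed an adjusted p of 0.05, and Rps12l1 is not drawn. Most members lie below 0 in both genotypes, and Rps27l, Rpl7l1, Rpl7a and Rpl22l1 stand at the upper end.

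The members in sum made up 4.47% ± 1.05 of nuclear-encoded counts at 11.1 mM and 2.58% ± 0.218 at 16.7 mM when the islets were hIAPP (SD, n = 8). In mIAPP islets they made up 4.6% ± 1.63 at 11.1 mM and 3.01% ± 0.756 at 16.7 mM. The lowest, median and highest shares were 2.72, 4.5 and 5.71% in hIAPP at 11.1 mM and 2.31, 2.57 and 2.91% at 16.7 mM. In mIAPP islets they were 2.83, 4.33 and 7.74% at 11.1 mM and 2.3, 2.74 and 4.64% at 16.7 mM. The groups overlapped in each genotype, with some 11.1 mM libraries as low as those at 16.7 mM.

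**Figure D2:**
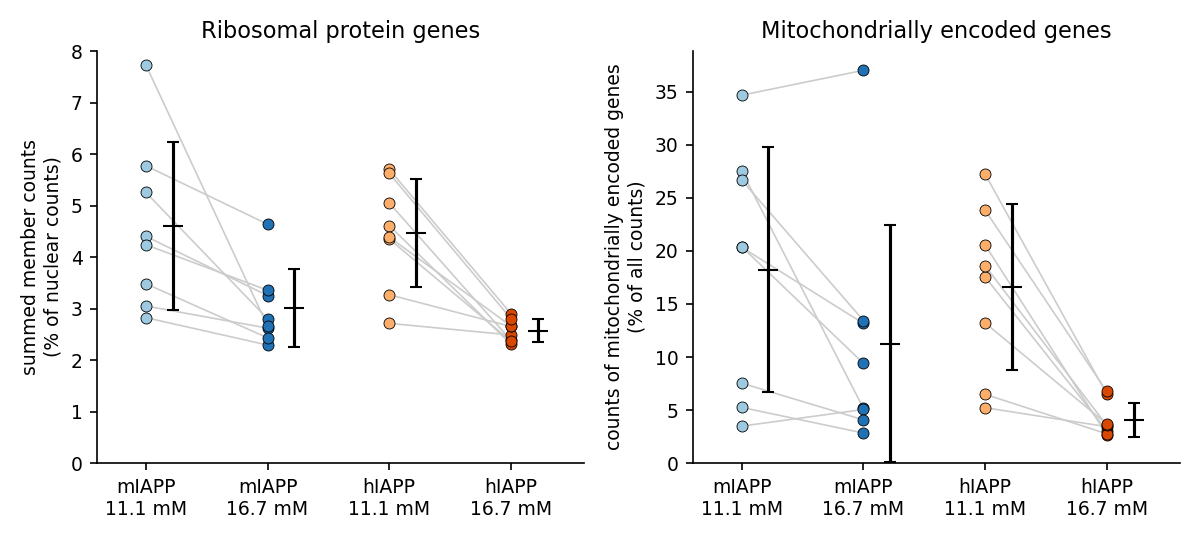
Left, summed member counts as a percentage of nuclear-encoded counts; right, counts of mitochondrially encoded genes as a percentage of all counts. Each point is 1 library, grey lines join libraries of 1 set, and bars give the mean and SD of 8 libraries; both measures are lower and narrower in hIAPP islets at 16.7 mM (2.58% ± 0.218 and 4.06% ± 1.63) than at 11.1 mM.

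Among large subunit genes, 40 of 43 fell in hIAPP and 34 of 43 in mIAPP islets, and 1 rose, in hIAPP islets. Rpl13a, which besides its place in the ribosome acts in the GAIT complex that silences inflammatory mRNAs, fell the most. Its lowest, median and highest levels in hIAPP islets were 730, 1822 and 3113 CPM at 11.1 mM and 485.7, 569.5 and 849.8 CPM at 16.7 mM. In mIAPP islets they were 807.6, 1642 and 3991 CPM at 11.1 mM and 514.8, 774.8 and 2887 CPM at 16.7 mM. Every set was lower at 16.7 mM in both genotypes, although the groups overlapped, and the log2 fold changes were -1.45 ± 0.21 (SE; adjusted p = 1.33e-06) and -0.99 ± 0.20 (adjusted p = 0.00033).

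Rpl31 fell by 1.07 on the log2 scale in hIAPP islets (from a mean of 487 to 219.2 CPM) and by 0.70 in mIAPP islets, in 8 of 8 sets of each. Near-identical rows held 23% of the counts of Rpl31 and its copies together, so its level is uncertain. Rpl8, a protein near the peptidyl transferase centre, fell by 1.00 and 0.82, from 833.4 to 398 CPM in hIAPP and from 893.5 to 496 CPM in mIAPP islets. Rpl35a, one of the genes mutated in Diamond-Blackfan anaemia, fell by 0.80 (adjusted p = 3.37e-06) and 0.59 (adjusted p = 0.000286) in 8 of 8 sets of each genotype. Rpl41, the most abundant per length, fell by 0.80 with glucose when the islets were hIAPP (adjusted p = 0.000925), whereas for mIAPP its change of -0.38 ± 0.19 did not pass the test (adjusted p = 0.113).

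Rpl5 and Rpl11, which form the 5S particle with 5S rRNA, fell in both genotypes. On its own row Rpl5 had a log2 fold change of -0.39 ± 0.12 in hIAPP and -0.31 ± 0.12 in mIAPP islets. With its near-identical rows added, an analysis chosen after seeing the data, these became -1.13 ± 0.18 and -0.74 ± 0.18. For Rpl11 the values were -0.55 and -0.37 on its own row and -0.68 and -0.47 with the copies. Adding the copies thus moved Rpl5 from among the smaller to among the larger changes. Rpl12 did not pass on its own row (-0.09 in hIAPP and -0.22 in mIAPP islets) and passed with its copies (-0.58, adjusted p = 0.00117, and -0.45, adjusted p = 0.0128).

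Rpl7a, an RNA-binding protein of the large subunit, went against the other large subunit genes in hIAPP islets. Its levels were 232.1, 286.7 and 323.7 CPM (lowest, median and highest) at 11.1 mM and 326.3, 347.9 and 375 CPM at 16.7 mM. All 8 libraries at 16.7 mM lay above all 8 at 11.1 mM, with a log2 fold change of 0.31 ± 0.08 (adjusted p = 0.00108). In mIAPP islets the medians were 286 and 327.1 CPM, the groups overlapped, and the change of 0.14 ± 0.08 did not pass (adjusted p = 0.141). The difference between the genotypes in this change was 0.17 ± 0.11 and did not pass either (adjusted p = 0.411). Rpl27 had a mean of 118.5 and 117.8 CPM in hIAPP and 128.5 and 124.2 CPM in mIAPP islets at 11.1 and 16.7 mM, with log2 fold changes of 0.00 ± 0.11 and -0.03 ± 0.11 that did not pass. Near-identical rows held 41.7% of the counts of Rpl27 and its copies together, and with them added the changes were -0.22 ± 0.11 (adjusted p = 0.0723) and -0.15 ± 0.11 (adjusted p = 0.237). Rpl27 was singled out after its values were seen.

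Among small subunit genes, 31 of 33 fell in hIAPP and 28 of 33 in mIAPP islets, and 0 rose. Rps27, a zinc finger protein on the surface of the small subunit, had the smallest p of the small subunit genes named here. Its levels in hIAPP islets were 226.7, 435.2 and 514.1 CPM (lowest, median and highest) at 11.1 mM and 157.1, 178.9 and 221 CPM at 16.7 mM. In mIAPP islets they were 260.7, 428.3 and 792 CPM at 11.1 mM and 156.9, 210.4 and 398.6 CPM at 16.7 mM. The hIAPP groups did not overlap and the mIAPP groups did, and all 8 sets were lower in each. The log2 fold changes were -1.12 ± 0.15 (adjusted p = 5.08e-07) and -0.95 ± 0.15 (adjusted p = 1.24e-05).

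Rps3a1, which sits near the mRNA exit channel, was the other member whose hIAPP groups did not overlap, at 542.4 to 852.8 CPM at 11.1 mM and 438.5 to 532.4 CPM at 16.7 mM. It fell by 0.62 in hIAPP and 0.51 in mIAPP islets. Rps15, an assembly-critical protein of the small subunit head, fell by 1.34 (from a mean of 774.6 to 276.4 CPM) and 0.87. Rps24, another gene mutated in Diamond-Blackfan anaemia, fell by 1.11 (from a mean of 963.1 to 424 CPM) and 0.66. Rps10 fell by 0.62 ± 0.11 in each genotype. These 4 genes moved in 8 of 8 sets in each genotype.

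Rpsa, known also as the laminin receptor, fell in both genotypes, by 1.13 (hIAPP, adjusted p = 5.03e-05) and by 0.76 (mIAPP, adjusted p = 0.00421). Rps6, the substrate of the S6 kinases, fell by 0.78 and 0.48 on its own row and by 0.55 and 0.42 with its copies. Rps3, at the mRNA entry site, had smaller changes of -0.30 ± 0.09 (adjusted p = 0.00503) and -0.25 ± 0.09 (adjusted p = 0.0242). The members were therefore not equally affected, and called falls ranged from 0.23 (Rpl7) to 1.45 (Rpl13a) on the log2 scale in hIAPP islets, leaving out Rps12l1. Rps12l1 was counted among the falls in hIAPP islets, but rests on 3 libraries at 11.1 mM. Against a floor of 3 counts per library its mean at 16.7 mM was at least 168-fold lower, and setting it to that bound left the median at -0.68.

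The 3 stalk proteins did not move alike. The acidic proteins Rplp1 and Rplp2 fell in both genotypes, by 0.84 and 0.59 and by 0.70 and 0.54. Rplp0, which anchors them, was at 524.4, 823.2 and 889.8 CPM (lowest, median and highest) in hIAPP islets at 11.1 mM and at 769.2, 802 and 875.8 CPM at 16.7 mM. In mIAPP islets it was at 591.8, 759.1 and 1098 CPM and at 748.2, 844.9 and 1014 CPM. These ranges overlapped throughout, and the changes of 0.10 ± 0.10 and 0.13 ± 0.10 did not pass (adjusted p = 0.398 and 0.305).

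Across the 32 libraries the levels of most members varied together. Of 82 members at a mean of 10 CPM or more, the first principal component of their log2 levels held 87.8% of the variance, with differences between groups and sets included. The Pearson correlation of a member with the median of the others was above 0.5 for 77 and below 0 for 4. Those 4 were Rpl7a (-0.64), Rpl7l1 (-0.44), Rps27l (-0.27) and Rpl22l1 (-0.10), and Rplp0 stood at 0.46. The libraries share groups, sets and scaling, so these are descriptions.

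The summed level moved with the share of mitochondrially encoded counts. That share was 16.6% ± 7.83 in hIAPP islets at 11.1 mM and 4.06% ± 1.63 at 16.7 mM, and 18.2% ± 11.6 and 11.3% ± 11.2 in mIAPP islets. Among hIAPP libraries at 11.1 mM, the 2 with under 10% had member shares of 2.72 and 3.27% of nuclear counts, and the other 6 had 4.36 to 5.71%. Among mIAPP libraries at 11.1 mM, the 3 with under 10% had 2.83 to 3.49%, and the other 5 had 4.24 to 7.74%. All 8 hIAPP libraries at 16.7 mM were under 10%, with member shares of 2.31 to 2.91%. The mIAPP library of set 7 at 16.7 mM, with the largest mitochondrial share of its group, also had the largest member share, at 4.64%.

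**Figure D3:**
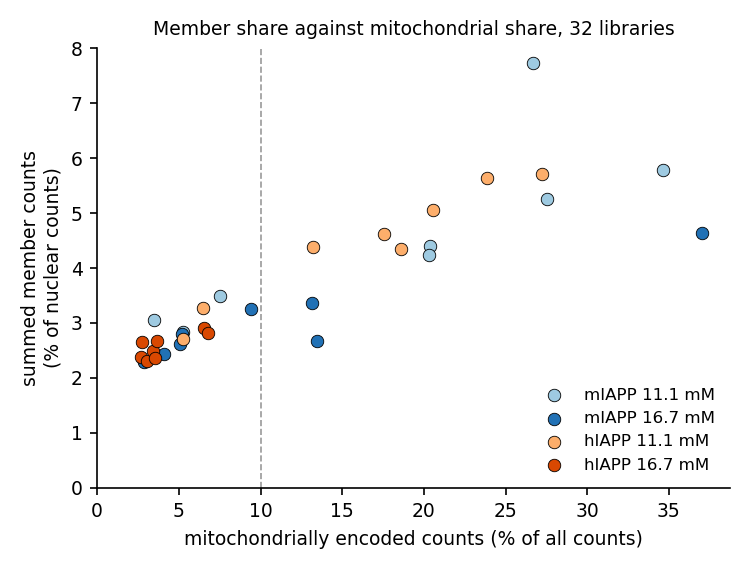
Summed member counts (percentage of nuclear-encoded counts) against counts of mitochondrially encoded genes (percentage of all counts), 1 point per library, coloured by group, with a dashed line at 10%. To the left of the line all groups lie between 2.3 and 3.49%; to the right, points reach 7.74%.

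The glucose effect was therefore also computed where this share was alike. With the 18 libraries under 10%, the member medians were -0.21 and -0.23, and besides the falls already counted 2 members rose in hIAPP and 3 in mIAPP islets, where 11.9 and 15.9% of all genes rose. Rpl13a (-0.77 ± 0.24, adjusted p = 0.0368), Rps24 (-0.60 ± 0.18, adjusted p = 0.0346) and Rps27 (-0.65 ± 0.20, adjusted p = 0.0375) were the 3 that fell in hIAPP islets. In mIAPP islets Rps27 (-0.85 ± 0.18), Rpl36 (-0.85 ± 0.27), Rpl8 (-0.69 ± 0.19), Rpl13a (-0.67 ± 0.21) and Rps10 (-0.59 ± 0.16) were among the 12. With all 32 libraries and the share as a covariate, 2 members fell and 3 rose in hIAPP islets, and 41 fell and 3 rose in mIAPP islets, with medians of -0.18 and -0.29. In that fit 11.3% of all genes fell and 11.3% rose in hIAPP islets, and 18% fell and 19% rose in mIAPP islets. Only 2 hIAPP libraries at 11.1 mM were under 10%, and all 8 at 16.7 mM were, so that in hIAPP islets the mitochondrial share and glucose can hardly be told apart.

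**Figure D4:**
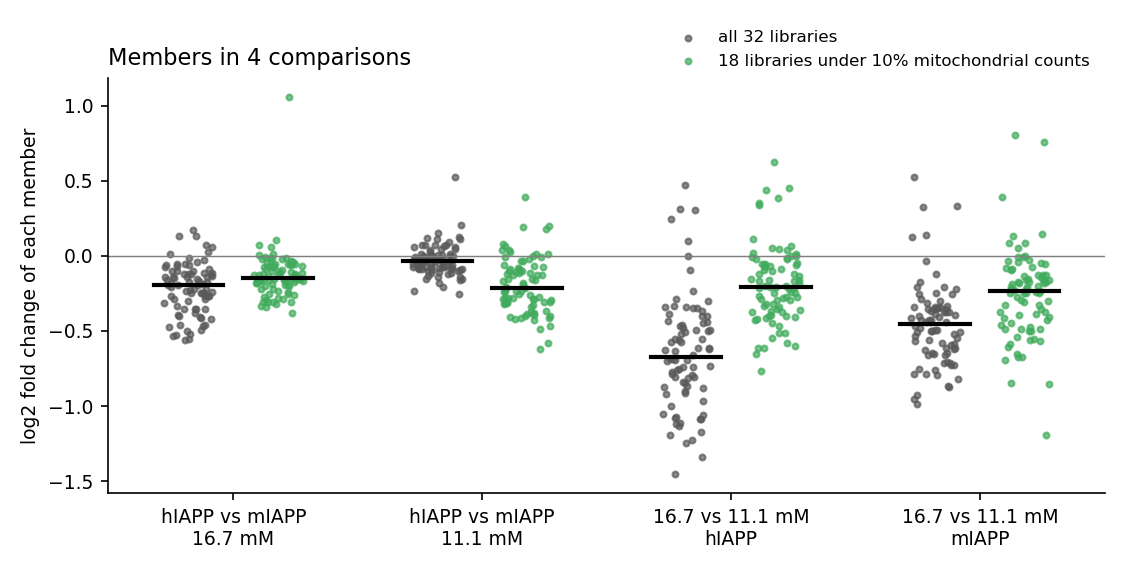
Log2 fold change of 82 members (points; Rps12l1, Rps3a2 and Rps3a3 are not drawn) in 4 comparisons, from all 32 libraries (grey) and from the 18 libraries with under 10% mitochondrially encoded counts (green). Black lines are medians of the points drawn; in both glucose comparisons the green median lies nearer 0 than the grey one.

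Cell type markers moved with glucose too. Macrophage markers fell for 5 of 6 genes in hIAPP and 6 of 6 in mIAPP islets, from a summed level of 210.5 to 364.9 CPM in hIAPP at 11.1 mM to 80.12 to 158.5 CPM at 16.7 mM. In mIAPP islets the sums were 172.3 to 318.9 and 81.05 to 177.8 CPM. Endothelial markers fell for 6 of 6 genes in hIAPP and 4 of 6 in mIAPP islets, with sums of at most 128.3 CPM in any library. Stellate and fibroblast markers fell for 4 of 5 and 2 of 5 genes, and their sums overlapped between all groups (170.5 to 1286 CPM). Beta cell markers fell for 7 of 9 genes and rose for 2 in hIAPP islets, and fell for 3 and rose for 2 in mIAPP islets. Of 4 ductal markers tested, 2 rose and 1 fell in hIAPP islets and 1 rose in mIAPP islets. The ductal sum went from 292.8 to 563.3 CPM at 11.1 mM to 565.7 to 1291 CPM at 16.7 mM in hIAPP islets, with no overlap, and from 288.2 to 426.7 CPM to 434.9 to 866.4 CPM in the littermates. Lymphocyte markers fell for 3 of 3 and 2 of 3 genes, with sums of at most 15.99 CPM. Glial markers fell for 2 of 3 genes in each genotype. Ppy, the PP cell marker, changed by -1.09 and -0.93 and passed in both. Of 5 alpha cell markers 1 rose in each genotype, and of 4 delta cell rows 1 rose in hIAPP and 0 in mIAPP islets. Of 2 neutrophil markers 1 rose and 1 fell in hIAPP and 2 fell in mIAPP islets, with sums of at most 23.16 CPM. Over all genes, 33.3% fell and 32.2% rose in hIAPP, and 22.7% fell and 24.9% rose in mIAPP islets. The part of these cell types in the fall of the ribosomal protein genes was not tested. Transcript length moved with the change as well. Other protein-coding genes with transcripts up to 800 bases had median log2 fold changes of -0.32 in hIAPP and -0.14 in mIAPP islets, and those over 5000 bases had 0.19 and 0.11; the members' own medians (-0.68 and -0.48) lay below those of the short genes, and the part of length was not tested.

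Several paralogs and relatives went the other way from the members they resemble. Rps27l, a p53 target and close paralog of Rps27, rose in both genotypes. Its levels were 46.18, 52.79 and 64.67 CPM (lowest, median and highest) in hIAPP islets at 11.1 mM and 64.07, 75.37 and 78.87 CPM at 16.7 mM. In mIAPP islets they were 38.48, 45.36 and 66.29 CPM and 60.89, 72.1 and 81.41 CPM. The groups overlapped at their edges, 7 of 8 sets were higher in each genotype, and the log2 fold changes were 0.47 ± 0.10 (adjusted p = 0.000151) and 0.53 ± 0.10 (adjusted p = 8.67e-05).

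Rpl7l1, a nucleolar relative of Rpl7 that acts in ribosome assembly, rose in all 8 sets of each genotype, by 0.30 ± 0.05 (hIAPP, adjusted p = 2.23e-05) and 0.33 ± 0.05 (mIAPP, adjusted p = 1.52e-05). Its lowest, median and highest levels were 40.64, 44.96 and 51.17 CPM in hIAPP islets at 11.1 mM and 49.96, 55.24 and 65.07 CPM at 16.7 mM. Rpl22l1 rose in mIAPP islets (0.32 ± 0.12, adjusted p = 0.0283), and its change of 0.24 ± 0.12 in hIAPP islets did not pass (adjusted p = 0.071). Rps4l, a relative of Rps4x annotated as a transcribed processed pseudogene, fell in hIAPP islets (-0.35 ± 0.10, adjusted p = 0.00355), and its change of -0.12 ± 0.10 in mIAPP islets did not pass.

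The rises of Rps27l and Rpl7l1 also stood in the libraries with under 10% mitochondrially encoded counts. There the change of Rps27l was 0.62 ± 0.14 (hIAPP, adjusted p = 0.008) and 0.81 ± 0.12 (mIAPP, adjusted p = 0.000949). Rpl7l1 changed by 0.45 ± 0.10 and 0.39 ± 0.09, and Rpl22l1 by 0.76 ± 0.18 in mIAPP islets (adjusted p = 0.00944). In sets 3 and 4 alone, the 2 sets in which all 4 libraries were under 10% (a choice made after seeing the data), Rps27l was the 1 member that passed in either genotype, at 0.69 ± 0.14 and 0.62 ± 0.14.

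The coding sequences of these pairs differ at many positions. Over the aligned bases of the longest annotated coding sequences, identity was 75.9% for Rps27 and Rps27l, 69.8% for Rpl22 and Rpl22l1 and 54.1% for Rpl7 and Rpl7l1. Aligned stretches of 60 bases are shown for the first of these from the start codon and for the second from coding base 42 of Rpl22 and 27 of Rpl22l1, with the differing bases (18 and 21) in capitals. Their genes lie at chr3:90212522-90213651 (Rps27, minus strand), chr9:66946086-66949516 (Rps27l, plus), chr4:152325742-152334071 (Rpl22, plus) and chr3:28805436-28807424 (Rpl22l1, plus).
Rps27: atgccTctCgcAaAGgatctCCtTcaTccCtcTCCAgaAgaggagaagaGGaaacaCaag
Rps27l: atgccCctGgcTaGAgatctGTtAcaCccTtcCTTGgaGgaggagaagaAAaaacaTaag
Rpl22: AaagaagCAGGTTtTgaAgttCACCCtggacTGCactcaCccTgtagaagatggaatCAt
Rpl22l1: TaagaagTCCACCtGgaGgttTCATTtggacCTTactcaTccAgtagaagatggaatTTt

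A ratio of 2 rows of 1 library needs no scaling between libraries. The ratio of Rps27l to Rps27 was 10.5, 13.2 and 20.4% (lowest, median and highest) in hIAPP islets at 11.1 mM and 34.8, 42.7 and 46.1% at 16.7 mM. In mIAPP islets it was 8.08, 11.5 and 17.2% at 11.1 mM and 15.5, 32.9 and 40.6% at 16.7 mM. The hIAPP groups did not overlap, and in mIAPP islets the library of set 7 at 16.7 mM alone lay within the range of the 11.1 mM group. Within sets the ratio was 3-fold higher at 16.7 mM in hIAPP and 2.79-fold higher in mIAPP islets, in 8 of 8 sets of each.

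The ratio of Rpl22l1 to Rpl22 was 43, 54.3 and 76.3% in hIAPP islets at 11.1 mM and 91.3, 108.5 and 124.5% at 16.7 mM, so that the paralog came near or passed its partner in CPM (a level not corrected for length). In mIAPP islets it was 37.5, 54.4 and 68.2% at 11.1 mM and 53, 93.1 and 107.1% at 16.7 mM. Within sets this was 1.98-fold and 1.71-fold higher, and the ratio of Rpl7l1 to Rpl7 was 1.45-fold and 1.46-fold higher, each in 8 of 8 sets. By exact two-sided sign-flip permutation over the 8 sets, each of these 6 ratio changes had p = 0.00781, the smallest that 8 sets allow, and an adjusted p of 0.0174 over 20 tests (4 pairs in 5 comparisons). The ratio of Rps4l to Rps4x was 1.29-fold higher in hIAPP islets (adjusted p = 0.0174 by the same exact test), in 8 of 8 sets. In mIAPP islets it was 1.29-fold higher in 6 of 8 sets and did not pass (adjusted p = 0.144, exact test).

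**Figure D5:**
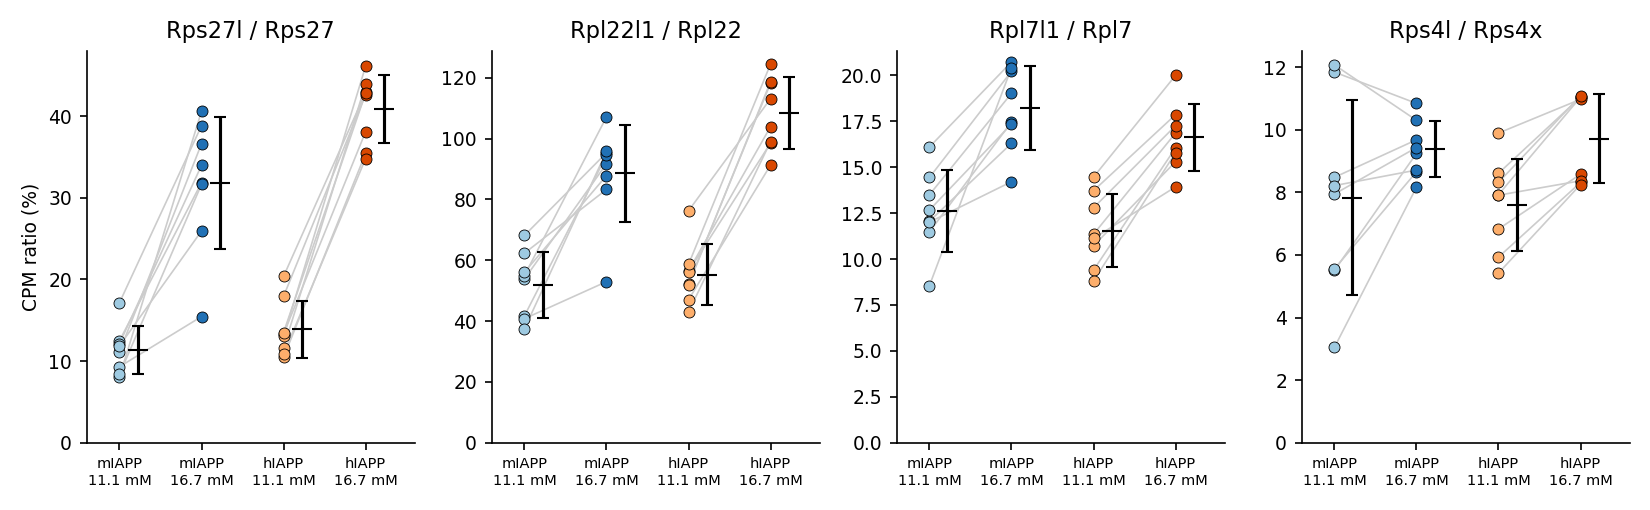
Ratio of CPM of a paralog to its partner (percent) in each library, by group, for Rps27l to Rps27, Rpl22l1 to Rpl22, Rpl7l1 to Rpl7 and Rps4l to Rps4x. Grey lines join libraries of 1 set and bars give mean and SD of 8 libraries; the Rps27l ratio goes from a median of 13.2 to 42.7% in hIAPP and from 11.5 to 32.9% in mIAPP islets.

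In the libraries with under 10% mitochondrially encoded counts the ratio of Rps27l to Rps27 was 17.9 and 20.4% in the 2 hIAPP libraries at 11.1 mM and 34.8 to 46.1% in the 8 at 16.7 mM. In mIAPP islets it was 8.08 to 17.2% in 3 libraries and 31.9 to 40.6% in 5. The ratio of Rpl22l1 to Rpl22 was 56.3 and 76.3% against 91.3 to 124.5%, and 41.7 to 68.2% against 83.3 to 107.1%. Neither ratio overlapped between the glucose levels in these libraries. The ratio of Rpl7l1 to Rpl7 overlapped in hIAPP islets (11.1 and 14.5% against 13.9 to 20%) and did not in mIAPP islets (12.7 to 16.1% against 16.3 to 20.7%).

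Between genotypes at 16.7 mM glucose, the comparison nearest to the study's subject of amyloid, few members differed. By edgeR 5 of 85 were lower in hIAPP islets, where 11.2% of all genes were lower, and 0 were higher, where 9.27% of all genes were. At an unadjusted p under 0.05 there were 22 of 85 members and 5942 of all 16428 genes. DESeq2 called 12 members (11 lower and 1 higher), where 13.3% of all genes were lower and 11.7% higher. By limma voom 11 were called, all lower, where 15.4% of all genes were lower. The member median was -0.20, with 76 of 85 below 0, beside -0.01 for all genes, of which 8373 of 16428 were below 0. Within sets the member median ran from -0.70 (set 7) to 0.19 (set 4). The groups overlapped for every member, while 0.584% of all genes were lower and 2.39% higher without overlap.

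The 5 were Rps12, Rpl10a, Rps24, Rpl36 and Rpl13a. Rps12, a small subunit protein near the beak, stood at 136.9, 180.6 and 206.8 CPM (lowest, median and highest) in hIAPP and 186.4, 223.4 and 385.3 CPM in mIAPP islets. It was lower in 8 of 8 sets, with a log2 fold change of -0.46 ± 0.15 (adjusted p = 0.0294), and with its copies added -0.31 ± 0.14 (adjusted p = 0.113). Rpl10a, of the large subunit's mobile L1 stalk, stood at 165.7, 185.9 and 218.3 CPM against 172.8, 220.6 and 513.5 CPM (-0.42 ± 0.15, adjusted p = 0.0427). Rps24, Rpl36 and Rpl13a had log2 fold changes of -0.46, -0.55 and -0.56, in 7 of 8 sets each, and the ranges of all 5 overlapped. For the mIAPP group the highest value of each of the 5 was in the library of set 7.

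Calls changed with the set left out, with 0 without set 1, 2, 6 or 7, 16 without set 4 and 9 without set 8. The shares of all genes in those fits are not given here, so these counts do not set the members apart. Without that mIAPP library, 0 of 85 members passed (11 at an unadjusted p under 0.05) and the median was -0.16. In that fit 6.27% of all genes were lower and 6.49% higher. With the mitochondrial share as a covariate, 0 passed, where 2.2% of all genes were lower and 2.76% higher. The member median there was 0.08, with 12 members below 0. With library totals alone as the scaling, which moved the median of all genes from -0.01 to 0.18, 1 member was higher and 0 lower, with a member median of -0.02. Of all genes 14.7% were higher and 4.44% lower with that scaling. Without the replicate block 0 passed, where 4% of all genes were lower and 3.92% higher. Mitochondrially encoded genes were lower in hIAPP islets at 16.7 mM for 12 of 13 genes, with a median of -1.29. Endothelial markers were lower for 4 of 6 genes (summed level 15.76 to 40.86 CPM against 29.68 to 89.9 CPM) and beta cell markers for 6 of 9 (145900 to 210000 CPM against 187600 to 273000 CPM). The part of these cell types in the members' difference was not tested.

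At 11.1 mM glucose 0 members differed between genotypes by edgeR, where 0.0183% of all genes were lower and 0.11% higher in hIAPP islets. At an unadjusted p under 0.05 there was 1 member (Rpl12) and 1121 of all 16428 genes, and DESeq2 and limma voom called 0 members. Near-identical rows held 83.6% of the counts of Rpl12 and its copies. With such rows added to the members, 0 were under that p. No member's groups were free of overlap, as against 0.0791% (higher) and 0.0122% (lower) of all genes. The member median was -0.03, with medians of -0.03 for the large and -0.07 for the small subunit. Among the libraries with under 10% mitochondrially encoded counts the member median was -0.21, with 71 of 84 below 0. In that fit 0 members passed, where 0% of all genes were lower and 0.0583% higher. It held 2 hIAPP and 3 mIAPP libraries at 11.1 mM. Rpl13a stood at a mean of 1867 ± 784.4 CPM in hIAPP and 2079 ± 1193 CPM in mIAPP islets (SD, n = 8), with a log2 fold change of -0.09 ± 0.20.

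Whether the glucose effect differed between the genotypes was tested gene by gene. In the genotype by glucose interaction 0 members passed by edgeR, where 2.17% of all genes passed above 0 and 0.95% below. At an unadjusted p under 0.05 there was 1 member (Rpl36a) and 3055 of all 16428 genes, and DESeq2 and limma voom called 0 members. Near-identical rows held 27.5% of the counts of Rpl36a and its copies. With such rows added to the members, 0 were under that p. The member median was -0.18, and 78 of 85 were below 0, the side on which the fall is larger in hIAPP islets. The median of all genes was -0.02, and 8630 of all 16428 were below 0. Most members vary together across libraries, so the 78 are not separate results. Within sets the member median ran from -0.9 (set 1) to 0.52 (set 8), and it was above 0 in sets 3 and 8. Rpl13a had -0.47 ± 0.28 and Rps24 -0.45 ± 0.23 (SE), and neither passed (adjusted p = 0.388 and 0.294). Leaving out that set 7 library the median was -0.14, and with the mitochondrial share as a covariate it was 0.11.

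For the paralog ratios, differences between the genotypes passed for 2 of the 4 pairs. For Rps27l to Rps27 the hIAPP ratio exceeded that of the littermates in 8 of 8 sets at both glucose levels, 1.32-fold at 16.7 mM and 1.23-fold at 11.1 mM (adjusted p = 0.0174 for each, exact sign-flip permutation). At 16.7 mM the ranges were 34.8 to 46.1% in hIAPP and 15.5 to 40.6% in mIAPP islets, and they overlapped. Neither Rps27l (0.06 ± 0.10 at 16.7 mM) nor Rps27 (-0.35 ± 0.15) passed on its own. The ratio of Rpl22l1 to Rpl22 was 1.24-fold higher in hIAPP islets at 16.7 mM, in 7 of 8 sets (adjusted p = 0.0469, exact test). It did not pass without the mIAPP library of set 7 (adjusted p = 0.0852, exact test) or when any 1 of sets 1 to 7 was left out. Set 8 was the 1 set with the other sign (91.27% in hIAPP and 95.75% in mIAPP islets) and stayed in each of these fits. With fewer sets the exact test has fewer sign flips, so not passing there says little about the sets left out. The Rps27l ratio still passed at 16.7 mM without that library (adjusted p = 0.0347, exact test). The difference of the glucose effect on the ratios between genotypes did not pass for any of the 4 pairs (lowest adjusted p = 0.268, exact test).

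Genes that work with the ribosome did not follow the members as a block. Some ribosomal protein genes have symbols outside the rule. Fau, which encodes Rps30 fused to a ubiquitin-like protein, fell with glucose by 1.18 in hIAPP and 0.83 in mIAPP islets. Rack1, a scaffold protein on the small subunit, fell by 0.27 and 0.31. Rpl36al, which encodes nearly the same protein as Rpl36a, rose in all 8 sets of each genotype, by 0.30 ± 0.08 (hIAPP, adjusted p = 0.00223) and 0.43 ± 0.08 (mIAPP, adjusted p = 0.000105). Of 20 other genes with terminal oligopyrimidine mRNAs, which include Fau and Rack1, 10 fell and 2 rose in each genotype. Over all genes, 33.3% fell and 32.2% rose in hIAPP, and 22.7% fell and 24.9% rose in mIAPP islets. Eif3f, a translation initiation subunit, fell by 1.05 and 0.85.

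More translation factors rose than fell. Of 39 tested, 20 rose and 5 fell in hIAPP islets (32.2% and 33.3% of all genes), and 18 rose and 6 fell in mIAPP islets (24.9% and 22.7%), with medians of 0.17 and 0.15. Gspt1, a release factor, rose by 1.24 ± 0.11 and 1.07 ± 0.11, and Eif5a by 0.53 and 0.47, each in 8 of 8 sets. Ribosome biogenesis genes gave 16 higher and 6 lower of 34 in hIAPP and 16 higher and 5 lower in mIAPP islets, with a median of 0.17 and 0.18. Tsr1 and Ltv1, assembly factors of the small subunit, rose by 1.05 and 0.85 in hIAPP and by 0.74 and 0.61 in mIAPP islets, in 8 of 8 sets of each. Both lists had medians above 0 where the ribosomal protein genes had medians below 0.

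The counts of the next 3 lists stand beside all genes, of which 32.2% rose and 33.3% fell in hIAPP islets. In mIAPP islets 24.9% of all genes rose and 22.7% fell. Of 14 genes of RNA polymerase I and rDNA transcription, 2 rose and 4 fell in hIAPP and 1 rose and 4 fell in mIAPP islets. Ubtf, the factor that holds rDNA open, fell by 0.58 and 0.37, in 8 of 8 sets of each, and the genotypes differed at 16.7 mM, with hIAPP the lower (-0.29 ± 0.06, adjusted p = 0.00292). Of 27 rows for genes of mTORC1, LARP1 and Myc control, 7 rose and 9 fell in hIAPP and 6 rose and 7 fell in mIAPP islets. Rheb, the GTPase that activates mTORC1, rose by 1.10 ± 0.13 and 1.19 ± 0.13, and Rps6kb2, an S6 kinase gene, fell by 0.97 ± 0.15 in hIAPP islets. Of 9 p53 genes tied to ribosome stress, 4 rose and 3 fell and 3 rose and 3 fell, with Mdm2 higher by 0.46 and 0.39 and Bax lower by 1.00 and 0.63.

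Mitochondrial ribosomal protein genes, which serve the ribosomes inside mitochondria, were split. Of 80 tested, 16 rose and 34 fell in hIAPP and 17 rose and 18 fell in mIAPP islets, with medians of -0.17 and -0.04, nearer to 0 than those of the cytosolic members. Over all genes, 32.2% rose and 33.3% fell in hIAPP, and 24.9% rose and 22.7% fell in mIAPP islets. Ribosomal protein pseudogene rows fell for 43 of 65 tested in hIAPP and 19 of 65 in mIAPP islets, with medians of -1.19 and -0.62. Reads that fit both a pseudogene and its parent cannot be assigned to one of them.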

How the data were processed

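Poly(A) RNA was sequenced in 32 libraries. The authors deposited 1 table with an estimated count per gene and library, made with bcl2fastq 1.8.4, kallisto 0.45.0 and GRCm38, per the submitters' processing notes. How transcripts were summed to genes is not given in the sources used here. Counts were rounded to whole numbers. In edgeR 4.0.16 (R 4.3.3), filterByExpr kept 16428 genes, TMM factors scaled the libraries, and a robust quasi-likelihood fit of the 4 groups with set as a block (21 residual degrees of freedom) gave log2 fold changes. P-values were adjusted by Benjamini-Hochberg over all genes tested, with a threshold of 0.05. The edgeR fit was also run on simulated counts, drawn independently for each gene and without set effects. That run does not cover genes that vary together, as most members do.

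Set numbers pair the libraries because the labels describe 8 sets that each held all 4 groups. Deviations from group means of same-set libraries correlated at a mean of 0.17 to 0.36 between groups, with single pairs as low as -0.23.

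Paralog ratios used log2(count + 0.5) and exact sign flips over sets. Alternatives used DESeq2 1.42.0, limma 3.58.1 (voom), other scalings and filters, the mitochondrial share as a covariate, and subsets of libraries. Near-identical rows were found with blastn 2.17.0 on GENCODE M21 transcripts. Counting error is covered by the fits, and totals of 16110000 to 43700000 counts per library set their precision.

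The members and lists were chosen with earlier results of these data known. Named genes were the stalk genes, Rpsa, Rps6, Rpl5, Rpl11, Rps3, Rack1, every paralog, the most and least abundant members, and per comparison up to 5 members a direction with the smallest p and the same sign in at least 7 of 8 sets. Rpl12, Rpl27, Rpl7 and Rpl36a were named after their values were seen.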

Additional observations from a re-analysis of the deposited data

Results flagged for a closer look

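Of 140 groups of 8 libraries checked for the named members, the summed share and the ratios, 20 held a library whose gap to its nearest neighbour, divided by the range of the group, was above Dixon's 95% critical value. Chance gives about 1 in 20 such groups, and values that share a library are not independent. In 15 of the 20 the library was that of set 7 in mIAPP islets at 16.7 mM, the one with 37% mitochondrially encoded counts. It was the highest of its group for Rplp1 (1224 CPM, next 625), Rplp2 (442.3, next 277.6), Rpsa (2546, next 926.8), Rps6 (747.9, next 481) and Rpl5 (101.3, next 64). It was also the highest for Rpl41 (4425 CPM, next 1768), Rpl13a (2887, next 1222), Rps15 (1222, next 523.5), Rps24 (1266, next 750.9) and Rpl31 (625.1, next 370.9). The same held for Rpl10a (513.5 CPM, next 305.1), Rpl36 (455.1, next 213) and Rps12l1 (149.4, next 0.0312). Its summed member share was 4.642% (next 3.36%), and its ratio of Rpl22l1 to Rpl22 was the lowest of the group, at 52.95% (next 83.3%).

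The other 5 lay in other libraries. Rpl5 was highest in hIAPP islets of set 4 at 16.7 mM (65.29 CPM, next 56). Rps3 (715.2 CPM, next 496.9) and Rps3a1 (1162 CPM, next 812.6) were highest in mIAPP islets of set 8 at 11.1 mM. Rps27l was lowest in hIAPP islets of set 1 at 16.7 mM (64.07 CPM, next 72). The ratio of Rpl22l1 to Rpl22 was highest in hIAPP islets of set 3 at 11.1 mM (76.25%, next 58.6%).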

How the results depend on the processing

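Between genotypes at 16.7 mM, 5 members were called, all lower. The number called was 12 by DESeq2 (11 lower, 1 higher), 11 by limma voom, 1 with RLE factors, 1 with no filter and 3 with pseudogene rows added, these last 4 counts all lower; 1 with library totals alone, a higher one that was not among the 5; and 0 with the mitochondrial covariate, among libraries under 10%, or without mIAPP replicate 7. Of all genes, 13.3% were lower by DESeq2, 15.4% by limma voom, 10.8% with RLE factors and 4.46% with no filter. With library totals alone 14.7% of all genes were higher. With the covariate 2.2% were lower, among libraries under 10% 2.23%, and without mIAPP replicate 7 6.27%. Leaving out each set in turn gave 0 to 16 members. Without the replicate block the count was 0, and the glucose counts were 78 in hIAPP and 54 in mIAPP islets against 78 and 67 with it. In that fit 4% of all genes were lower between genotypes at 16.7 mM. With glucose 30.4% of all genes fell and 26.8% rose in hIAPP islets, and 15.8% fell and 19% rose in mIAPP islets. The glucose count in hIAPP islets was 5 with the covariate and 5 under 10%, with medians of -0.18 and -0.21; in mIAPP islets it was 44 and 15. Among named members that passed in the reported fit, values turned sign with the covariate for Rpl13a (0.0725) and Rps24 (0.0391) between genotypes at 16.7 mM, and for Rps12l1 (1.23) and Rpl41 (0.13) with glucose in hIAPP islets; of all 85 members, 69 were below 0 there against 79 in the reported fit. In 2 alternatives chosen after seeing the data, near-identical rows gave 3 members at 16.7 mM, and sets 3 and 4 alone gave 0, with glucose counts of 1 in each genotype and a hIAPP median of -0.0791. There Rplp2 (0.0152), Rps3 (0.0143), Rps4l (0.0194) and Rpl41 (0.16) turned sign in hIAPP islets, among the same kind of members; 53 of 84 were below 0. The log2 ratio of Rpl22l1 to Rpl22 between genotypes at 16.7 mM (0.31) was 0.31 with near-identical rows (adjusted p = 0.0568, exact test), 0.23 without mIAPP replicate 7, and 0.23 to 0.36 over the sets left out. A value that passed in neither fit was counted as unchanged whatever its sign. Shares of all genes are not given for the fits with rows added, sets left out or sets 3 and 4 alone. Those counts therefore do not set the members apart. The cause of these changes was not tested, beyond the smaller number of libraries in the subsets. Depth limits Rps3a2, Rps3a3 and Rpl6l.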
